A study of Mus musculus with 35 samples.

Results

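The miRNAs of interscapular brown fat (iBAT) were compared with those of the white pad labelled mWAT in mice. The comparison used the 6 miRNA libraries of these pads, 3 from iBAT and 3 from mWAT, out of 18 miRNA libraries and 35 samples in the series. All 485 miRNAs listed for the 6 libraries were considered. Each library was small RNA from whole fat pads of male C57BL/6J mice aged 13 weeks and kept at room temperature, with no treatment; the strain field of the labels reads C57BL/6. Nothing in the labels ties a library to 1 animal or to a pool, so the p-values below measure the spread between these samples, which may be technical. The labels do not spell out the letters of mWAT. Messenger RNAs that mark brown fat were not measured in these libraries, so the labels could be held only against miRNAs known from each tissue.

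miRNAs are short RNAs cut from hairpin precursors, and each hairpin can yield a product from its 5p arm and another from its 3p arm. A mature miRNA guides Argonaute proteins to messenger RNAs chiefly through its seed, and pairing usually lowers the target's stability or translation. Brown fat burns fuel for heat in mitochondria that carry uncoupling protein, whereas white fat stores lipid, and several miRNAs have been described in mice as promoting or opposing the brown state. The libraries came from whole pads with vessels, blood and immune cells, so fewer cells of a type and less RNA per cell cannot be told apart.

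The sequences below carry the contrast between the pads. They are mature mouse miRNAs from RefSeq on build GRCm38.p6, written 5′ to 3′ with the seed in capitals, and 424 of the 485 listed names had an entry there. The first 3 pairs share a seed within the pair, yet 1 member differed between the pads in another way than its relative.
miR-10b-5p: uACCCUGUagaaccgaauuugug
miR-10a-5p: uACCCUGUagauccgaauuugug
miR-107-3p: aGCAGCAUuguacagggcuauca
miR-103-3p: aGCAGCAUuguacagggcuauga
miR-30e-5p: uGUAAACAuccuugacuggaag
miR-30a-5p: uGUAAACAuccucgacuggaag
The next pair comes from Hox gene clusters and was nearly missing from iBAT.
miR-196a-5p: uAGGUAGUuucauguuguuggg
miR-196b-5p: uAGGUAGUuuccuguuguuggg
The last 4 were strongly higher in iBAT, and the first 3 of them come from 1 cluster.
miR-182-5p: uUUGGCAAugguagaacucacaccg
miR-96-5p: uUUGGCACuagcacauuuuugcu
miR-183-5p: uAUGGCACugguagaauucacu
miR-193b-3p: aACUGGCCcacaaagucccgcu
Positions are counted from 1 at the 5′ end, with the first-named miRNA's base before the position. miR-10a-5p and miR-10b-5p differ by U12A, miR-103-3p and miR-107-3p by G22C, miR-30a-5p and miR-30e-5p by C13U, and miR-196a-5p and miR-196b-5p by A12C. With relatives this close, and likewise for miR-378a, b, c and d, the assignment of reads to 1 member is uncertain, because the counting is not described in the sources used here.

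The iBAT libraries held 1293407, 3329370 and 1662312 reads, and the mWAT libraries held 2817527, 1943300 and 2871504, as recovered from the deposited values. On the log2 scale, Pearson's r between libraries was 0.976 to 0.9902 within iBAT, 0.952 to 0.989 within mWAT and 0.858 to 0.909 between the pads. The first principal component held 75.7% of the variance and separated the pads. The second held 12.5%, and mWAT 2 had its highest score. In mWAT 2, 15 tested miRNAs stood at 4 or more times both other mWAT libraries, among them miR-200a-3p, miR-200b-3p, miR-192-5p, miR-215-5p and miR-375-3p, which are known from epithelia. Results that rest on mWAT 2 are therefore given with and without it.

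Of the 394 miRNAs with a mean of at least 10 normalized counts over the 6 libraries, 231 (58.6%) differed between the pads at an adjusted p under 0.05 in limma. The other 91 listed miRNAs lay below that level and were not tested, 5 of them at 0 in all 6 libraries. In iBAT, 103 (26.1%) were higher and 128 (32.5%) were lower. These are the shares to hold against every count of called members in the groups below. The 3 libraries of each pad did not overlap for 273 tested miRNAs (69.3%). The median log2 difference over all tested miRNAs was -0.23, and this is the value to hold against the medians of groups below; all differences are iBAT minus mWAT on the log2(normalized count + 1) scale. DESeq2 with its own size factors moved that median by 0.13, to -0.10. A difference of at least 1 on the log2 scale was called for 68 higher and 73 lower miRNAs, and of the 231 calls 176 held whichever library was left out.

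**Figure D1:**
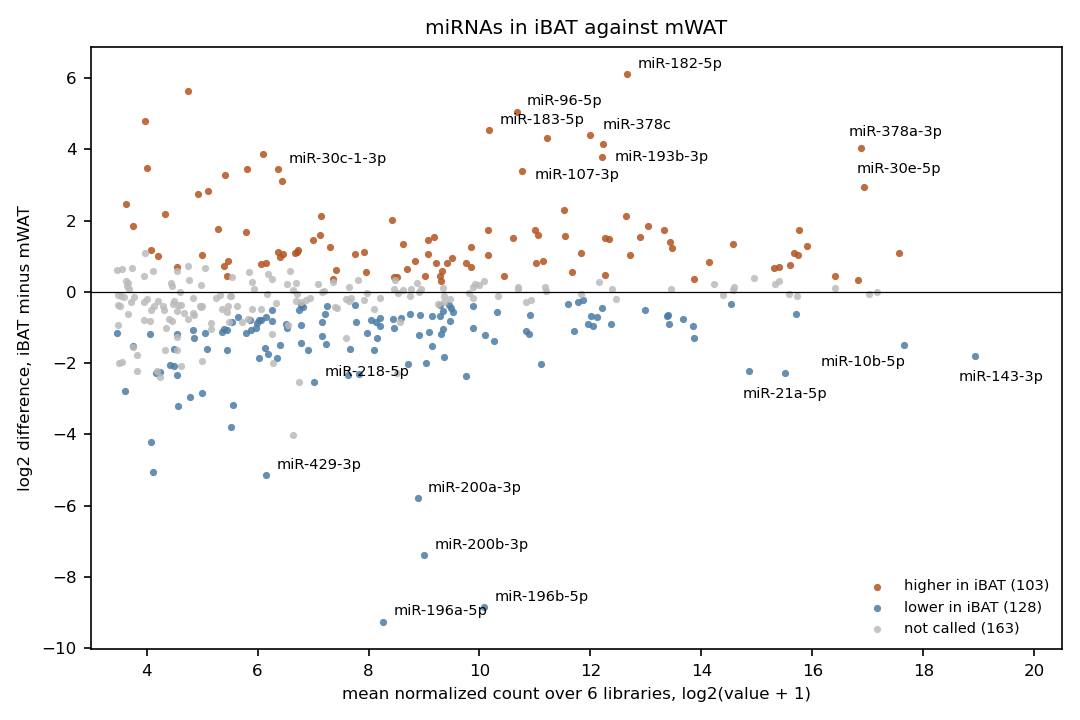
Each point is 1 of the 394 tested miRNAs, with its mean normalized count over the 6 libraries on the x axis (log2 of value + 1) and its log2 difference, iBAT minus mWAT, on the y axis. Orange points were called higher in iBAT (103), blue points lower (128) and grey points were not called (163); miR-182-5p is the highest point, and miR-196a-5p and miR-196b-5p are the lowest.

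The makeup of the most abundant miRNAs differed. Both pads shared 8 of their 10 most abundant miRNAs, but those of iBAT were led by miR-126a-3p, miR-378a-3p, miR-143-3p and miR-30e-5p, and those of mWAT by miR-143-3p and miR-10b-5p. miR-143-3p took 7.50% ± 0.306 of normalized counts in iBAT and 26.5% ± 3.15 in mWAT (SD, n = 3 each). miR-378a-3p took 7.55% ± 0.510 in iBAT and 0.468% ± 0.0319 in mWAT. The 5 miR-30 products of the 5p arm took 18.3% ± 1.01 in iBAT and 7.06% ± 0.781 in mWAT, while the 9 let-7 products of the 5p arm took 7.34% ± 0.498 in iBAT and 7.15% ± 0.186 in mWAT. For shares, 3 libraries against 3 cannot go below an exact permutation p of 0.1, two-sided. miR-26a-5p, one of the 8 shared miRNAs, read 158011, 145015 and 136932 normalized counts in iBAT and 147539, 149373 and 140449 in mWAT, with overlapping pads and a log2 difference of 0.01 (SE 0.08, adjusted p = 0.949).

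The miRNAs known from brown fat were mostly higher in iBAT. Of 31 tested members of a list of miRNAs described as acting in or marking brown fat, 20 were higher, 3 were lower and 8 were not called, with a median log2 difference of 1.53. Among all tested miRNAs, 26.1% were higher and 32.5% were lower. The list was chosen with earlier results of these data known. miR-378a-3p, described in mice as promoting brown fat expansion, read 250869, 206494 and 220480 normalized counts in iBAT and 13159, 14551 and 13442 in mWAT. Every iBAT library stood far above every mWAT library, and the log2 difference was 4.04 (SE 0.10, adjusted p = 5.9e-07). The other arm, miR-378a-5p, differed by 4.15, and miR-378b, miR-378c and miR-378d by 3.86, 4.41 and 4.33 on the log2 scale.

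The miR-193b and miR-365 pair lies within 10000 bases on chromosome 16 and is described as promoting brown adipocyte differentiation in cultured mouse cells. miR-193b-3p read 10794, 7708 and 8036 normalized counts in iBAT against 641, 664 and 598 in mWAT. The pads were far apart, with a log2 difference of 3.78 (SE 0.14, adjusted p = 3.74e-06). miR-365-3p, which a second copy on chromosome 11 also makes, read 15709, 14105 and 17375 in iBAT against 6124, 3292 and 5172 in mWAT, a log2 difference of 1.74 (SE 0.23). miR-193a-3p, a relative with the same seed on chromosome 11, was higher by only 1.07 on the same scale.

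The miR-183 cluster on chromosome 6 held the largest positive log2 difference of all tested miRNAs. miR-182-5p, described as maintaining brown adipocyte function in mice, read 10419, 13116 and 14652 normalized counts in iBAT against 88.5, 558 and 121 in mWAT. Its log2 difference was 6.11 (SE 0.65, adjusted p = 0.000362). miR-96-5p read 1946, 2995 and 4476 in iBAT against 54.1, 241 and 51.8 in mWAT, and miR-183-5p read 1357, 2148 and 3084 in iBAT against 46.2, 167 and 88.6 in mWAT. Their log2 differences were 5.06 (SE 0.63) and 4.54 (SE 0.50). In all 3 members mWAT 2 was the highest mWAT library, yet it stayed below every iBAT library. Without mWAT 2 the differences of miR-182-5p and miR-96-5p were 6.91 and 5.78.

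Other members of the brown fat list were called higher by smaller steps. miR-203-3p, described beside miR-182 in mouse brown adipocytes and known also from skin, read 11227, 10015 and 10055 normalized counts in iBAT against 2231, 2351 and 2511 in mWAT (log2 difference 2.14). miR-455-5p, described as induced by cold in mouse fat, was higher by 2.12 and miR-455-3p by 1.75. The 3p product read 690.4, 2252 and 2451 in iBAT against 453, 409 and 543 in mWAT, so iBAT 1 lay close to mWAT. Its call was lost without iBAT 2 (adjusted p = 0.0626), iBAT 3 (0.0598) or mWAT 1 (0.0549), and without iBAT 1 the difference was 2.33. miR-32-5p, described as brown fat enriched in mice, was higher by 1.53. miR-26b-5p, abundant in both pads, was not called (0.15, adjusted p = 0.165).

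The 3 members of the list that were lower in iBAT were miR-196a-5p, described below, and the minor products miR-365-2-5p (log2 difference -1.20) and miR-26a-2-3p (-1.04). The call of miR-365-2-5p was lost without mWAT 1, and that of miR-26a-2-3p was lost without any of iBAT 1, iBAT 3, mWAT 1 and mWAT 3 (adjusted p 0.0640 to 0.0786).

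**Figure D2:**
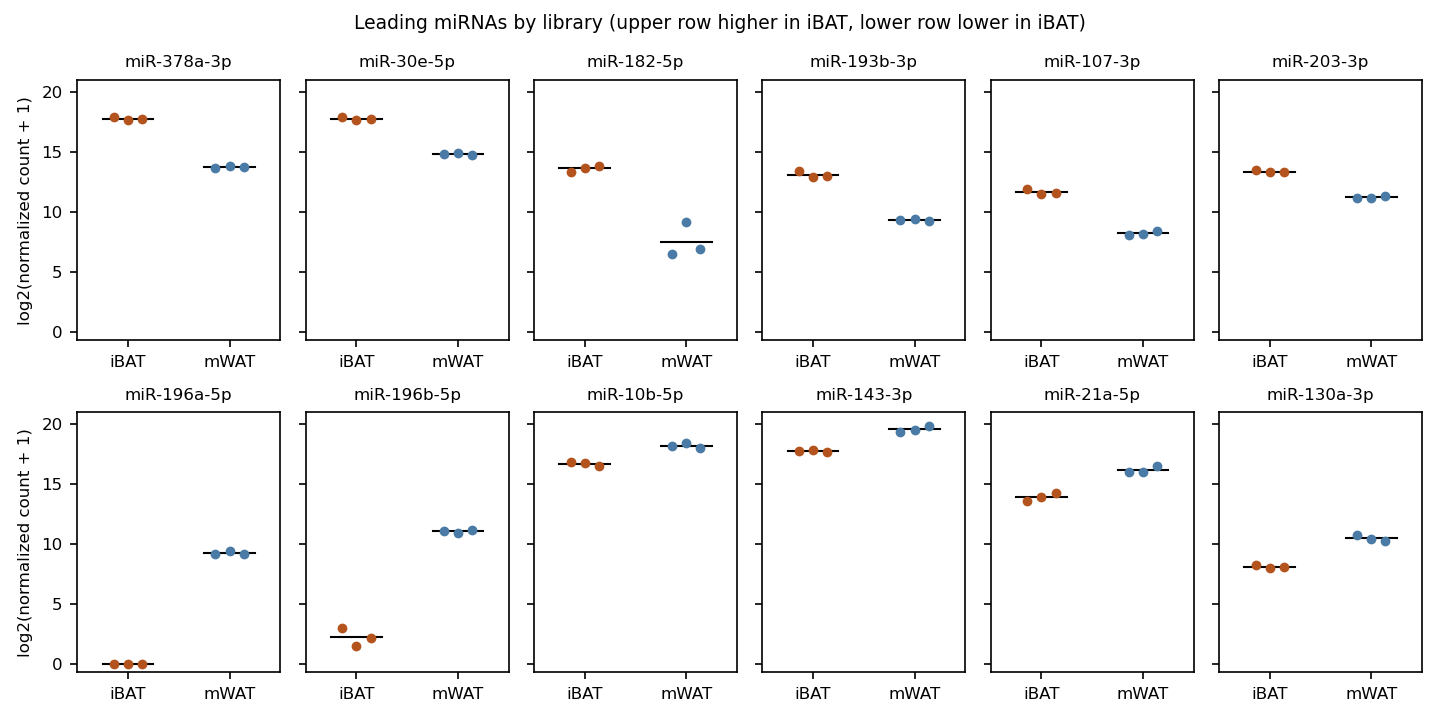
Each panel shows 1 miRNA, with the 3 iBAT libraries (orange) left of the 3 mWAT libraries (blue) as log2(normalized count + 1), and a bar at the mean. In the upper row all iBAT points lie above all mWAT points, in the lower row all lie below, and miR-196a-5p is at 0 in every iBAT library.

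Within the miR-30 family, whose members are known to be abundant in fat and of which miR-30b and miR-30c are described as promoting thermogenic genes in mice, 9 of 11 tested products were higher in iBAT and none was lower (median 1.18). Over all tested miRNAs the shares were 26.1% higher and 32.5% lower. Within the family the differences varied by genomic copy. miR-30e and miR-30c-1 lie together on chromosome 4 within the span of Nfyc, a transcription factor subunit gene, and all 4 of their products were higher. miR-30a and miR-30c-2 lie on chromosome 1.

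miR-30e-5p read 242132, 210329 and 214570 normalized counts in iBAT against 28749, 30892 and 27490.4 in mWAT. Its log2 difference was 2.94 (SE 0.09, adjusted p = 1.24e-06), whereas miR-30a-5p, which differs from it by 1 base outside the seed, read 144518, 123305 and 122564 in iBAT against 107802, 106742 and 92279.9 in mWAT. That difference was 0.35 (SE 0.11, adjusted p = 0.0294), and its call was lost without any 1 library other than mWAT 2 (adjusted p 0.0521 to 0.0871). The 3p arms of these hairpins, which differ by G18A, showed the same contrast. miR-30e-3p was higher by 2.29 (SE 0.09), and miR-30a-3p had a log2 difference of -0.07 (SE 0.11, adjusted p = 0.600).

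miR-30c has the same 5p product from both copies, higher in iBAT by 1.75, but its 3p products tell the copies apart. They differ by G9A, U12C and C22U, with miR-30c-1-3p named first, and are shown for that reason.
miR-30c-1-3p: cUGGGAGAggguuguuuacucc
miR-30c-2-3p: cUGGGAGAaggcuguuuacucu
miR-30c-1-3p, from chromosome 4, read 178, 149 and 127 normalized counts in iBAT against 9.83, 12.1 and 17.3 in mWAT, a log2 difference of 3.46 (SE 0.25, adjusted p = 7.66e-05). miR-30c-2-3p, from chromosome 1, read 361, 328 and 409 in iBAT against 384, 342 and 399.6 in mWAT. Its pads overlapped, and the log2 difference was -0.04 (SE 0.12). miR-30b-5p and miR-30d-5p were higher by 1.34 and 1.03.

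miR-103 and miR-107 are known to be encoded in pantothenate kinase genes and, in mice, to affect insulin sensitivity. They were called in opposite directions. miR-107-3p, within the span of Pank1 on chromosome 19, read 3758, 2799 and 2969.9 normalized counts in iBAT against 273, 287 and 333 in mWAT (log2 difference 3.40, SE 0.14, adjusted p = 4.74e-06). miR-103-3p, from copies on chromosomes 2 and 11, read 2997, 3017 and 3448 in iBAT against 4805, 4600.3 and 5826 in mWAT (-0.68, SE 0.12, adjusted p = 0.00295). Their summed level, as a seed family, averaged 6330 ± 476 in iBAT and 5375 ± 686 in mWAT and was not called (log2 difference 0.24, adjusted p = 0.129).

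**Figure D3:**
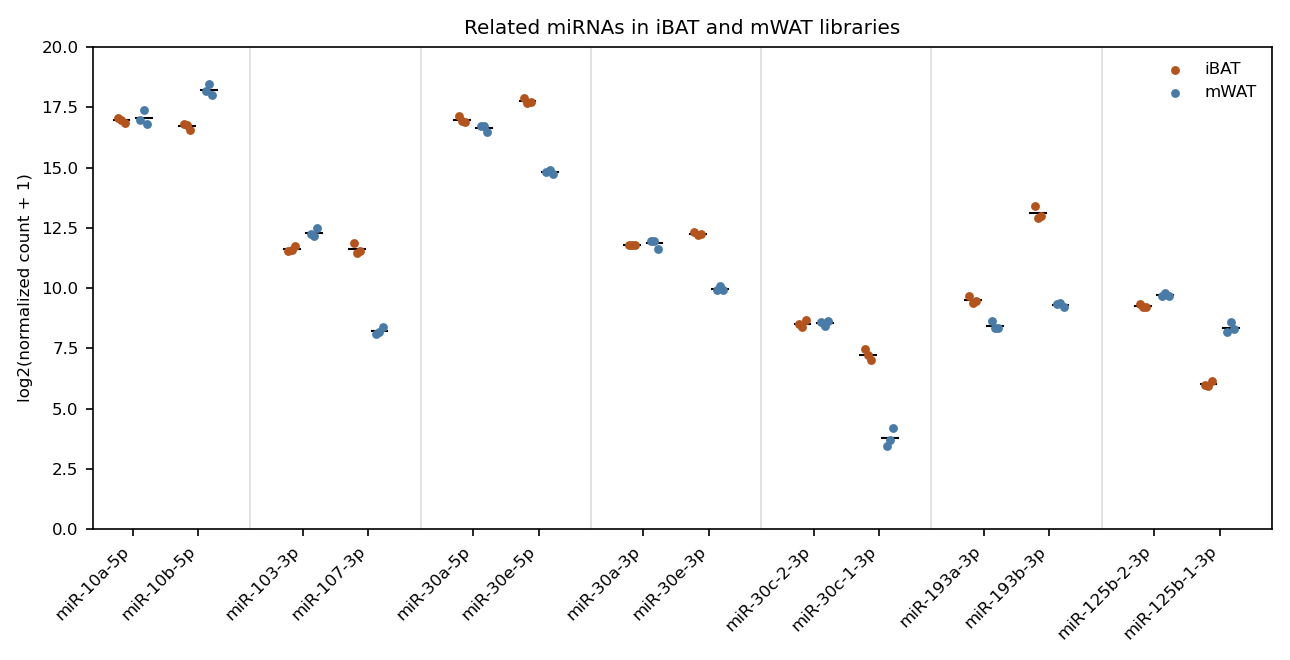
Pairs of related miRNAs are shown as log2(normalized count + 1), with 3 iBAT libraries (orange) left of 3 mWAT libraries (blue) for each miRNA and a bar at the mean. In the miR-30 pairs the product from chromosome 4 separates the pads by 2.29 to 3.46 on the log2 scale, while its relative from chromosome 1 differs by -0.07 to 0.35.

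miRNAs encoded inside Hox gene clusters, whose host genes set position along the body axis, gave the largest differences in the other direction. Of 7 tested, 4 were lower in iBAT and none was higher (median -1.50), beside 32.5% lower and 26.1% higher among all tested miRNAs. miR-196a-5p, described in mice as promoting browning of white fat, had no read in any iBAT library and 591, 668 and 584 normalized counts in mWAT. Against a floor of 3 reads per iBAT library it was at least 122-fold lower in iBAT. miR-196b-5p read 7.22, 1.76 and 3.51 in iBAT against 2211, 1983 and 2274 in mWAT. This rests on 7 reads in iBAT and 5668 in mWAT, a depth-corrected ratio of mWAT over iBAT of 659 with an exact 95% counting interval of 320 to 1639. Such intervals and floors cover counting error only. In 3 of the 6 libraries the smallest value was 2 reads. Over all 6 libraries, 3 values stood at 1 read and 106 at 2 reads, so a value of 0 in any of them may stand for 1 read.

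The pair from the front part of the Hox clusters split. miR-10b-5p, within Hoxd3 and Hoxd4 on chromosome 2, read 115873, 111213 and 95928 normalized counts in iBAT against 294632, 363027 and 261749 in mWAT, a log2 difference of -1.50 (SE 0.14, adjusted p = 0.000244). miR-10a-5p, within Hoxb3 on chromosome 11, read 137315, 129929 and 119471 in iBAT against 126973, 171387 and 113317 in mWAT. The pads overlapped and the difference was -0.07 (SE 0.16, adjusted p = 0.725). Without mWAT 2 it was 0.10, and under DESeq2 0.05. Their other arms are distinct in sequence, and there miR-10b-3p was lower by 2.32 (SE 0.24). miR-615-3p, of the Hoxc cluster, also overlapped between the pads (-0.04, SE 0.15).

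miR-143 and miR-145a, known from smooth muscle and in the case of miR-143 also from adipocyte differentiation, were lower in iBAT, as were all 5 tested products of the smooth muscle list (median -2.02). miR-143-3p read 228877, 230326 and 213233 normalized counts in iBAT against 669281, 743128 and 933846 in mWAT. Its log2 difference was -1.79 (SE 0.13, adjusted p = 8.66e-05). miR-145a-5p read 10450.2, 9869 and 10529.9 in iBAT against 49684, 37214 and 60899.7 in mWAT, a difference of -2.23, and the minor arms miR-145a-3p and miR-143-5p were lower by 1.29 and 2.02. Of 11 tested products of a mesenchymal list, which includes miR-143, 7 were lower and 2 were higher (median -0.76). Both lists stand beside 32.5% lower and 26.1% higher among all tested miRNAs. miR-214-3p, of a fibroblast-expressed pair with miR-199a, was lower by 1.17; that call was lost without iBAT 1 (adjusted p = 0.0568) or mWAT 1 (0.0539). miR-199a-5p was lower by 0.75, a call lost without any 1 library other than mWAT 2 (adjusted p 0.0633 to 0.114), and miR-152-3p was lower by 0.51 (SE 0.07). The 2 higher products were the arms of miR-22, of which miR-22-3p averaged 87184 ± 7385 in iBAT and 35833 ± 2005 in mWAT.

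Among 15 tested miRNAs known from lymphoid and myeloid cells, 11 were lower in iBAT and 1 was higher (median -0.67). With any 1 library left out, 8 or 9 were called lower, and DESeq2 called 9 lower. The shares among all tested miRNAs were 32.5% lower and 26.1% higher. miR-21a-5p, widely expressed and known to rise in inflammation and fibrosis, read 12319, 15925 and 19174 normalized counts in iBAT against 67764, 66711 and 95979 in mWAT (log2 difference -2.28, SE 0.21, adjusted p = 0.000237). miR-223-3p, known from neutrophils and macrophages, read 281, 388 and 367 in iBAT against 708, 788 and 749 in mWAT (-1.12, SE 0.14). miR-146a-5p, which dampens innate immune signalling, was lower by 0.67, and miR-142a-5p, a general blood cell miRNA, was not called (-0.21, adjusted p = 0.176). The higher one was miR-150-5p, abundant in mature lymphocytes, with 8102, 7083 and 6616 in iBAT against 3033, 2969 and 1839 in mWAT (1.51, SE 0.21, adjusted p = 0.00102). The summed level of the whole list was 42737 to 47486 in iBAT and 98461 to 130326 in mWAT. Most of that gap came from the widely expressed miR-21a-5p, at 12319 to 19174 in iBAT and 66711 to 95979 in mWAT. The part of this list in other differences was not tested.

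Of 24 tested products of a list of miRNAs described as opposing browning, 6 were higher, 8 were lower and 10 were not called (median -0.31). These shares are close to the 26.1% higher and 32.5% lower among all tested miRNAs. miR-221-3p and miR-222-3p, an X-linked pair known as inhibitors of the receptor KIT, were lower by 1.37 and 1.51. miR-34a-5p was lower by 0.65, and let-7i-5p by 0.96. miR-125b-5p read 38069.5, 42836 and 44701 in iBAT against 70460.5, 47593 and 78063 in mWAT (-0.61, adjusted p = 0.0296), with mWAT 2 close to iBAT. That call was lost without any 1 library other than mWAT 2 (adjusted p 0.0598 to 0.0932). Its 2 copies make different 3p products: miR-125b-1-3p, from chromosome 9, was lower by 2.33 (SE 0.15) and miR-125b-2-3p, from chromosome 16, by 0.45 (SE 0.09). miR-27b-3p was not called (0.10, adjusted p = 0.360). The higher products included miR-150-5p and the arms of miR-133.

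Striated muscle, endothelial and red blood cell miRNAs were higher in iBAT. All 6 tested striated muscle products were higher (median 2.30), beside 26.1% higher among all tested miRNAs. miR-1a-3p read 11244, 18215 and 10084 normalized counts in iBAT against 2809, 3859 and 4149 in mWAT (log2 difference 1.84, SE 0.25), and miR-133a-3p read 3125, 4331 and 2230 in iBAT against 887, 1126 and 1084 in mWAT. miR-206-3p, known from skeletal muscle, read 106, 218 and 121 in iBAT against 9.83, 54.3 and 6.48 in mWAT (3.10, or 3.98 without mWAT 2), miR-499-5p was higher by 3.27 and miR-133b-3p by 1.09. The heart and slow muscle miRNA miR-208b-3p was listed at 0 in 2 iBAT libraries and in all mWAT libraries. All its reads lay in the remaining iBAT library, and its mean of 3.08 over the 6 libraries was below the level tested. The summed level of the muscle list was 12605 to 23146 in iBAT and 3773 to 5319 in mWAT, and its part in other differences was not tested. With the libraries of all 6 pads in 1 fit, only 1 of the 6 was called.

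miR-126a-3p, known from endothelium and the most abundant miRNA of iBAT, read 273165, 259453 and 248787 normalized counts in iBAT against 122744, 144291 and 105593 in mWAT. Its log2 difference was 1.08 (SE 0.13, adjusted p = 0.000508), and miR-126a-5p differed by 1.09. All 3 tested endothelial products were higher; the third, miR-126b-3p, has few reads, comes from the opposite strand of miR-126a and lost its call without iBAT 2 (adjusted p = 0.0727); it was not tested without iBAT 1 or iBAT 3, and its difference of 2.46 was 1.55 without mWAT 1. All 5 tested red blood cell products were higher as well (median 1.50). The endothelial and red blood cell lists stand beside 26.1% higher among all tested miRNAs. The rarest red blood cell product, miR-486b-3p, had a mean of 12.5 normalized counts and an adjusted p of 0.0498. With any 1 library other than mWAT 2 left out, and in DESeq2, 4 of the 5 were called. miR-451a read 20034, 14872 and 13529.6 in iBAT against 6759, 6839 and 4701 in mWAT (log2 difference 1.40). Its neighbour miR-144-3p was higher by 1.53, miR-144-5p by 1.45 and miR-486a-5p, known from red cells and muscle, by 1.50. The list summed to 28883 to 44955 in iBAT and 9846 to 15015 in mWAT. The part of blood content in other differences was not tested.

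Epithelial miRNAs were uneven among the mWAT libraries. Of 9 tested products of a gut epithelial list, 3 were lower in iBAT and 6 were not called (median -2.28). That share is near the 32.5% lower among all tested miRNAs. Without mWAT 2, 2 of 7 list products were higher and 2 were lower, with a median of -0.56. The 3 were miR-200a-3p, miR-200b-3p and miR-429-3p, a cluster on chromosome 4. miR-200a-3p read 9.62, 7.93 and 5.27 normalized counts in iBAT against 243, 2393 and 171 in mWAT, and miR-200b-3p read 0, 7.93 and 0 in iBAT against 124, 2817 and 119 in mWAT. The pads did not overlap in either, and mWAT 2 was far above its group. The log2 differences were -5.79 (SE 0.95) and -7.39 (SE 1.45), and without mWAT 2 they were -4.60 and -5.88, both still called. Leaving out another library gave -6.51 to -5.58 for miR-200a-3p and -8.44 to -6.86 for miR-200b-3p. miR-429-3p read 0, 2.64 and 0 in iBAT against 25.6, 376 and 15.1 in mWAT, with a difference of -5.14, or -6.02 to -4.83 with a library other than mWAT 2 left out. DESeq2 gave no adjusted p for any of these 3.

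The other epithelial products depended on mWAT 2. miR-192-5p, known from gut and liver, read 4109, 3734 and 3406 normalized counts in iBAT against 1509, 17665 and 1683 in mWAT, with a log2 difference of 0.07 (adjusted p = 0.949). Without mWAT 2 it was higher in iBAT by 1.23 (adjusted p = 0.000428), and miR-194-5p was then higher by 0.74, against -0.23 with it. miR-215-5p read 7.22, 12.3 and 14.1 in iBAT against 12.8, 2147 and 5.40 in mWAT. miR-375-3p, known from pancreatic islets and gut epithelium, was listed at 0 in all iBAT libraries and read 0, 584 and 6.48 in mWAT. miR-205-5p, known from stratified epithelia, was also without reads in iBAT and read 4.92, 76.9 and 13.0 in mWAT (log2 difference -4.22, adjusted p = 0.0139, and -5.04 without mWAT 1). Against a floor of 3 reads per iBAT library its mean was at least 6.27-fold lower in iBAT. Without mWAT 2, miR-375-3p, miR-205-5p, miR-429-3p and miR-141-3p fell below the filter and were not tested. The whole gut epithelial list summed to 3611 to 4345 in iBAT, and to 2055, 27255 and 2139 in mWAT 1, 2 and 3, and its part in other differences was not tested. The liver miRNA miR-122-5p read at most 14.1 in iBAT and 52.9 in mWAT and was not called.

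**Figure D4:**
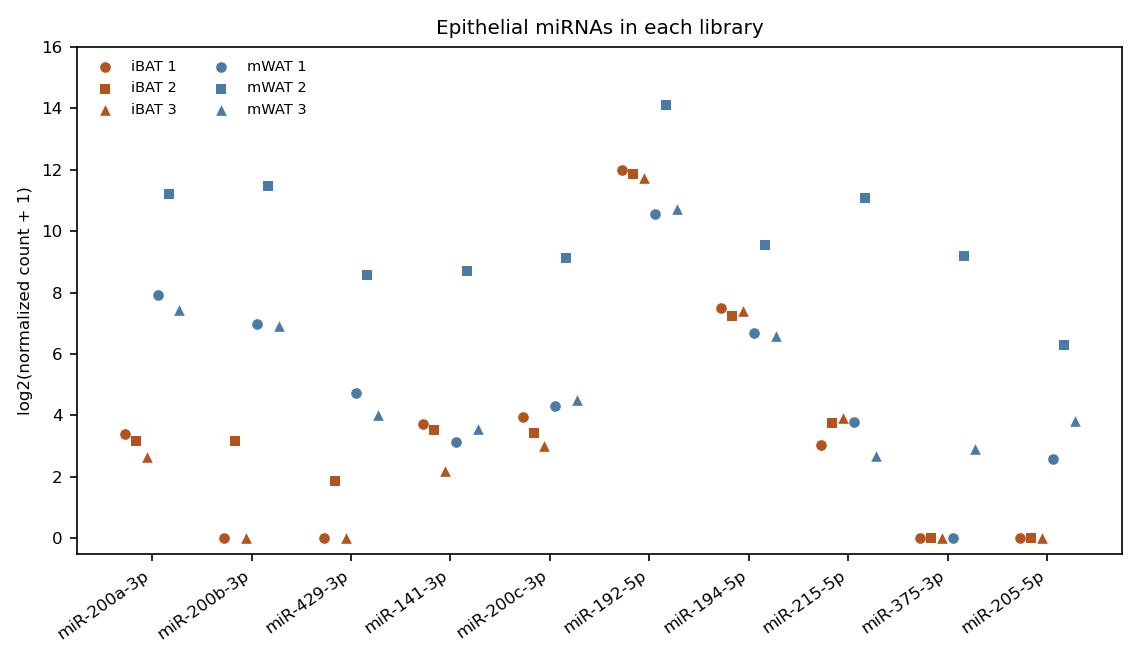
The y axis gives log2(normalized count + 1) of 10 epithelial miRNAs, with the 3 iBAT libraries in orange left of the 3 mWAT libraries in blue. mWAT 2 (blue square) is the highest library for each of the 10, with miR-192-5p at 17665 normalized counts.

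Neighbouring hairpins were also compared. Hairpins of tested miRNAs that followed each other within 10000 bases on 1 strand formed 36 clusters of 2 or more. In 16 of these only higher calls occurred in iBAT, in 13 only lower calls, in 3 both and in 4 none. Some of these clusters held a single call, and a product made from 2 loci counted in both clusters; whether neighbours share a transcript was not tested. The Dlk1-Dio3 miRNAs, an imprinted group on chromosome 12 expressed from the maternal allele, had 51 tested products, of which 30 were lower in iBAT and none was higher (median -0.89). In DESeq2, 20 of them were called lower. Over all tested miRNAs of the main fit, 32.5% were lower and 26.1% were higher. miR-127-3p read 7936, 8405 and 6539 normalized counts in iBAT against 12086, 16263 and 14216 in mWAT (log2 difference -0.89), and miR-434-5p, miR-541-5p and miR-136-3p were lower by 1.22, 1.11 and 0.65. The miR-322 and miR-503 group on the X chromosome, the mouse counterpart of human miR-424 and miR-503, had 7 of 8 tested products higher (median 1.54), and miR-322-5p read 3310.2, 3176 and 2899.6 in iBAT against 1076, 1064 and 737 in mWAT. miR-322-3p, miR-450a-5p and miR-351-5p were higher by 1.56, 1.51 and 0.87. The eighth, miR-542-3p, was lower, with 351, 285 and 213 in iBAT against 731, 896 and 404 in mWAT (-1.21). That call was lost without iBAT 3 (adjusted p = 0.0598) or mWAT 1 (0.0604).

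Several broadly expressed families moved by less. Their counts stand beside 26.1% higher and 32.5% lower among all tested miRNAs. Of 15 tested products of the miR-17-92 cluster and its paralogs, known to promote proliferation, 8 were higher in iBAT and none was lower (median 0.46), with miR-92a-3p higher by 1.04, miR-20a-5p by 0.80, miR-25-3p by 0.55 and miR-93-5p by 0.46. Of 6 tested miR-29 products, known to restrain collagen genes, 4 were higher (median 0.79), and miR-29a-3p averaged 62006 ± 3074 in iBAT and 36983 ± 4559 in mWAT. The other 3 were miR-29c-3p, miR-29b-3p and miR-29a-5p, higher by 0.94, 0.82 and 0.88, while miR-29c-5p, at 0.28, was not called. The miR-15 and miR-16 family split by copy: miR-16-5p and miR-15a-5p were higher by 1.24 and 1.27, while miR-195a-5p and miR-497a-5p, from a cluster on chromosome 11, were lower by 0.46 and 0.81. miR-15b-5p overlapped between the pads (0.18). In the miR-23, miR-27 and miR-24 clusters 3 of 10 products were lower, near the 32.5% among all tested miRNAs. Of these, miR-23a-3p and miR-23b-3p were lower by 0.66 and 0.91. The third, miR-24-2-5p, was lower by 0.23, a call that was lost without any 1 library other than iBAT 1 (adjusted p 0.0604 to 0.123). The abundant miR-24-3p (-0.10, SE 0.08) and miR-27a-3p (0.06, SE 0.09) overlapped between the pads.

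Of 19 tested let-7 products, which are known to favour differentiation, 6 were higher, 5 were lower and 8 were not called (median 0.07), shares near the 26.1% higher and 32.5% lower among all tested miRNAs. let-7g-5p was higher by 0.67, and let-7e-5p and let-7b-5p were lower by 0.90 and 0.33. The abundant let-7c-5p (-0.12, SE 0.08) and let-7f-5p (0.23, SE 0.10) were not called. In the group of miR-99 and miR-125, 5 of 9 products were lower and 1, miR-125a-5p (0.44), was higher, beside the same shares of 32.5% and 26.1%. miR-99a-5p read 27059, 44522 and 59752 in iBAT against 55108, 16089.7 and 89720.5 in mWAT, a spread within each pad that was wider than the difference between them. miR-99b-5p was uneven in mWAT only, with 33725, 32009 and 34802 in iBAT against 28316, 12467 and 47642 in mWAT. Of 12 tested neural products, 3 were higher and 4 were lower, again near the shares among all miRNAs (26.1% and 32.5%). Only 1 was called higher when any library other than mWAT 2 was left out, with the replicate block, with CPM and with all pads in 1 fit. miR-218-5p, of Slit2 and Slit3, read 40.9, 37.9 and 33.4 in iBAT against 231, 205 and 226 in mWAT (-2.53, SE 0.13). miR-128-3p was higher by 1.05. miR-338-3p was higher by 0.31, a call lost without any 1 library other than mWAT 2 (adjusted p 0.0523 to 0.0912), and miR-7a-5p (-0.48, adjusted p = 0.0553) and miR-338-5p (-0.03) were not called. The skin list had both arms of miR-203 higher and miR-205-5p lower, the pancreas list had no call in 1 tested, and the liver list had none in 1.

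**Figure D5:**
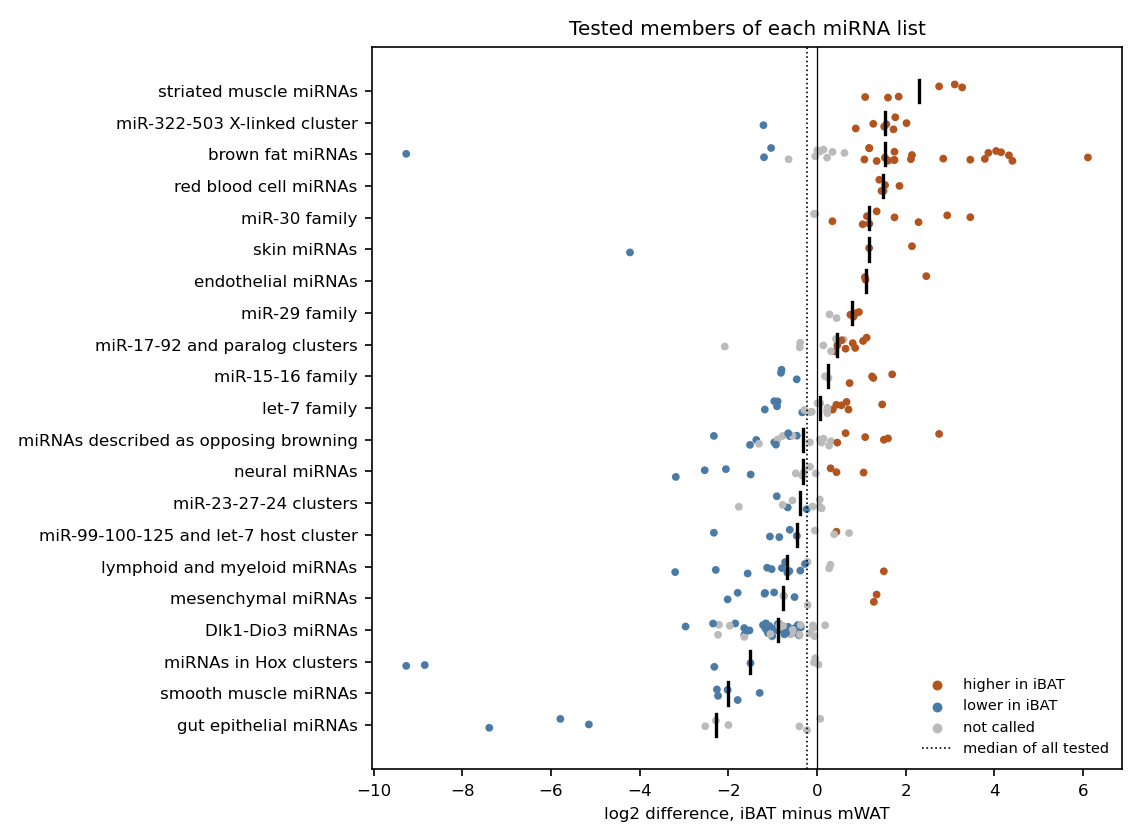
Each row is a list with at least 3 tested members, each point is a tested miRNA at its log2 difference, iBAT minus mWAT, and the bar is the list's median. The dotted line marks the median of all tested miRNAs, -0.23; medians run from -2.28 for gut epithelial to 2.30 for striated muscle miRNAs.

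Large differences also occurred outside the lists. miR-1941-3p, about which little is known, read 98.6, 108 and 96.7 normalized counts in iBAT against 7.87, 7.54 and 9.72 in mWAT (log2 difference 3.45). miR-3073a-3p read 67.4, 30.8 and 56.2 in iBAT and had no read in mWAT; against a floor of 3 reads per library it was at least 14.4-fold higher in iBAT. miR-6538 read 176, 157 and 127 in iBAT against 519, 1133 and 408 in mWAT (-2.03, SE 0.37). miR-130a-3p, described as lowering PPARG in human adipocyte precursors, read 306, 250.1 and 274 in iBAT against 1752, 1371 and 1229 in mWAT (-2.38, SE 0.16, adjusted p = 4.86e-05).

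Levels were also summed over miRNAs with the same seed. Of 284 seed families tested, 154 (54.2%) differed, 66 of them higher and 88 lower in iBAT. The sums cover only members with a RefSeq entry. Of 37 families with at least 2 tested members, 10 were higher, 14 were lower and 13 were not called. The seed GUAAACA of miR-30 summed to 438459 ± 38006 in iBAT and 156904 ± 11052 in mWAT (SD, n = 3 each), a log2 difference of 1.48. The seed ACUGGCC of miR-193 summed to 9574 ± 1770 in iBAT and 982 ± 58.5 in mWAT (3.27). The seed ACCCUGU of miR-10 summed to 236577 ± 19304 in iBAT and 443695 ± 81939 in mWAT (-0.89), and AGGUAGU of miR-196 to 4.16 ± 2.79 in iBAT and 2770 ± 107 in mWAT. The let-7 seed GAGGUAG summed to 219010 ± 9412 in iBAT and 209906 ± 16439 in mWAT and was not called (0.06, adjusted p = 0.570).

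The ratio of the 2 arms of a hairpin is set within a library. It does not depend on scaling between libraries, apart from the 1 added to each normalized count, which matters for rare arms. Of 111 hairpins tested, 22 (19.8%) differed, 11 toward the 5p arm and 11 toward the 3p arm in iBAT. In miR-98 the log2 ratio of 5p over 3p was 3.15, 3.07 and 3.17 in iBAT against 4.44, 5.22 and 4.99 in mWAT, a difference of -1.75 (SE 0.22, adjusted p = 0.00897). miR-98-3p was higher in iBAT by 1.47, while miR-98-5p had a difference of -0.29 (adjusted p = 0.0905). In miR-125a the ratio was 11.4, 11.5 and 11.2 in iBAT against 10.01, 9.77 and 9.79 in mWAT (1.50, SE 0.15, adjusted p = 0.00616), with the 5p product higher and the 3p product lower. In miR-140 the ratio differed by 1.18 (SE 0.15), and the dominant miR-140-3p was lower by 1.09. In miR-872 the ratio was -0.83, -0.96 and -1.18 in iBAT against -0.03, 0.10 and -0.05 in mWAT, so the 3p arm led in iBAT and the arms were near balance in mWAT. In miR-1981 the ratio was -0.21, -0.65 and -0.91 in iBAT against 0.87, 0.39 and 0.74 in mWAT (-1.26, SE 0.23, adjusted p = 0.0168), and miR-1981-5p was lower. The ratio of miR-9 differed by -1.16 (SE 0.22) and that of miR-190a by 1.11 (SE 0.29). With each library left out in turn, miR-98, miR-125a, miR-140, miR-872 and miR-676 were called in all 6 fits, miR-1981 and miR-9 in 2 and miR-190a in 0. The other 14 called hairpins were each lost in at least 1 such fit. With the replicate number as a block, no arm ratio was called, these 5 included.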

How the data were processed

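The authors deposited normalized counts of 485 miRNAs, a signal of reads divided by a size factor per library, per the file headers. The submitters' processing notes name kallisto 0.45.0, DESeq, DESeq2, GRCm38 and mm10 without their roles; how miRNA reads were aligned and counted was not given in the sources used here. TruSeq small RNA libraries were made from TRIzol-extracted, column-purified total RNA, per the labels' protocols. Groups came from the sample titles. The authors' own statistics and the mRNA data were not used.

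Every value of the 6 libraries was a whole multiple of 1 read within 0.02 reads. Totals ranged from 1293407 to 3329370 reads, so the shallowest library, iBAT 1, is the least precise for rare miRNAs. The main test was limma 3.58.1 (R 4.3.3; eBayes with a mean-variance trend, 4 residual degrees of freedom) on log2(normalized count + 1), for miRNAs with a mean of at least 10, with Benjamini-Hochberg adjustment over all miRNAs tested and calls under 0.05. Standard errors come from the fit, and means and SDs from normalized counts. The pseudocount understates differences of low miRNAs that have reads in both pads. For a pad at 0 the log2 difference depends on the pseudocount and is not a lower bound. Arm ratios used log2((5p + 1)/(3p + 1)), with both arms at a mean of at least 10, and seed families used sums over bases 2 to 8. Alternatives were another pseudocount, other filters, CPM, TMM, no trend, all 18 libraries in 1 fit, leaving out each library, a replicate block, and edgeR 4.0.16 and DESeq2 1.42.0 on the recovered reads. The limma script was tested on simulated counts.

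The comparison and the miRNA lists were chosen with earlier results of these data known. Named miRNAs are the 12 called with the largest difference each way (no overlap, mean of at least 100 in the higher pad), the 10 most abundant in each pad, the 4 most abundant of each list, any called member of a list with 4 or fewer calls, the 6 called hairpins with the largest change and the leading seed families. The hairpins miR-872 and miR-676, and other arms, relatives, cluster members and list members named beside them were chosen after their values were seen.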

Additional observations from a re-analysis of the deposited data

How the results depend on the processing

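The counts of called miRNAs stayed within 1.5 times 103 higher and 128 lower in iBAT under every alternative run: 88 to 106 and 106 to 123 with 1 library left out, 96 and 125 with the replicate block, 103 and 96 in DESeq2, and 109 and 113 in edgeR. No called miRNA changed sign. Same-numbered libraries deviated together with r of 0.002, 0.056 and 0.242, and libraries of different numbers with r of -0.195 to 0.114. So few correlations cannot decide whether the numbers mark pairs. The main fit did not take them as pairs. With the replicate block no arm ratio was called, 0 higher and 0 lower; leaving out 1 library gave 4 to 6 higher and 2 to 11 lower, and the cause was not tested. Seed families gave 59 higher and 88 lower with the replicate block.

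The sign of miRNAs without a call turned in some settings. Leaving out 1 library gave ranges of -0.12 to 0.037 for miR-30c-2-3p, -0.20 to 0.10 for miR-10a-5p, -0.54 to 1.23 for miR-192-5p, -0.74 to 0.74 for miR-194-5p, -3.86 to 0.33 for miR-215-5p, -0.049 to 0.055 for miR-26a-5p, -0.76 to 0.48 for miR-99a-5p, -0.13 to 0.83 for miR-99b-5p, -0.0083 to 0.11 for miR-27a-3p, -0.19 to 0.060 for miR-615-3p and -0.12 to 0.090 for miR-338-5p. TMM gave miR-30c-2-3p 0.020, miR-99a-5p 0.011, miR-615-3p 0.018 and miR-338-5p 0.032, and CPM gave miR-26a-5p -0.021. edgeR gave miR-30c-2-3p 0.0079, miR-615-3p 0.018, miR-338-5p 0.025 and miR-192-5p -0.83, and DESeq2 gave miR-30c-2-3p 0.10, miR-30a-3p 0.061, miR-10a-5p 0.045, let-7c-5p 0.020, miR-24-3p 0.038, miR-615-3p 0.11 and miR-338-5p 0.12. DESeq2 gave no adjusted p for 8 miRNAs, 7 of them among the gut epithelial list and the other miR-375-3p. Lists that moved by more than 1.5 times included let-7, with 3 to 8 higher and 2 to 6 lower, and the list opposing browning, with 3 higher when all pads shared 1 fit. Depth limits rare products: iBAT 1 had 1293407 reads.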
